A study of Mus musculus with 2 samples.

Results

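The wide distal hotspots of the embryonic mouse face are 2093 stretches of DNase-accessible chromatin, of 175168 hotspots called in replicate 1 on chromosomes 1 to 19. A hotspot is a region in which DNase I cut the chromatin more densely than its surroundings. A hotspot was kept when it was at least 1000 bp wide in replicate 1, when replicate 2 hotspots covered over 50% of its length, and when no transcription start site (TSS) of a protein-coding gene (GENCODE M21, basic transcripts) lay inside it or within 1 kb. The facial prominences are the outgrowths that build the face, taken here from healthy B6NCrl mouse embryos of day 11.5 of both sexes, with no treatment and no mutation named. The study had 2 DNase-seq libraries of this single group, biological replicates 1 and 2, each with the authors' own hotspots and 150 bp peaks on build mm10. There was no second condition, so no difference between groups could be tested, and all comparisons below set values side by side. The width in replicate 1 and the coverage in replicate 2 were the measured values the regions were chosen by, and peaks came from the same libraries, so that widths, coverage and peak numbers are a description and support nothing.

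DNase I cuts DNA where nucleosomes have been displaced by bound proteins, which happens at promoters, enhancers and insulators. A typical distal element is opened over about the length of a nucleosome or a little more. Wider regions form where several elements stand side by side, and such stretches are known around genes of developmental transcription factors, whose CpG-rich domains can be open or poised well beyond the promoter. In the face at this stage most cells are mesenchyme of neural crest origin under a sheet of ectoderm. The assay reads all cells of the tissue together, so that a site open in fewer cells and a site less open in each cell cannot be told apart.

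The tissue label was checked against marker genes by whether a peak centre lay within 1 kb of a TSS of the gene. Over all 20696 protein-coding genes this was so for 68.2% in replicate 1, 71.6% in replicate 2 and 67.3% in both, which is the background for these counts. All 12 markers of facial mesenchyme and all 6 of neurons had such a peak in both libraries. Of 8 markers of face epithelium, 4 had one in replicate 1 and 6 in replicate 2, and Krt18, Krt5, Krt14 and Trp63 did not have one in both. Of 6 endothelial markers, 2 had one in replicate 1 and 6 in replicate 2, with Cdh5, Pecam1, Tek and Tie1 in replicate 2 alone. Of 5 muscle progenitor markers, 4 had one in replicate 1 and 5 in replicate 2, and of 6 erythroid markers, 3 and 4. The erythroid marker Gata1 lies on chromosome X, whose peaks were not used, so that it could not be counted with a peak. Only 1 of 5 macrophage markers had one in either library. With so high a background and so few markers the counts neither show nor exclude a cell type. The part of these other cells in the regions described below was not tested. An open promoter is not expression, since CpG-rich promoters are often open in tissues that do not use the gene.

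Letters of 1 peak from inside each of the 8 widest regions are printed below, and need not stand for the whole region. For each region the strongest replicate 1 peak that replicate 2 also had is given, from the RefSeq genome GRCm38.p6, the same build as mm10. None of the 8 peaks overlapped an exon of a protein-coding gene. Capitals mark matches to the motifs TGACAG (Meis), TGATTNAT (Hox-Pbx), GCCNNNGGC (AP-2) and the core of the CTCF motif, on either strand. A match is a match of letters and not a bound site.

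Sp9 peak (chr2:73278596-73278745, plus strand): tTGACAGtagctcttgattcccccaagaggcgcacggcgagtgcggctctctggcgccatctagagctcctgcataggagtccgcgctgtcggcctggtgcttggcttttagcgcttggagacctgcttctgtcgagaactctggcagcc

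Nfe2l3 peak (chr6:51172956-51173105, plus strand): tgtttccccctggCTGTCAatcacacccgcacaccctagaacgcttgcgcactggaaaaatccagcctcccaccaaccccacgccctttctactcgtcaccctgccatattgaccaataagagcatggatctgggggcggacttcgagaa

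Kiz peak (chr2:146834456-146834605, plus strand): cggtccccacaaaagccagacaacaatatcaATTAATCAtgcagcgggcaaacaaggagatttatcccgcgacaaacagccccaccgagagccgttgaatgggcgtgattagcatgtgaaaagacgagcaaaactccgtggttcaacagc

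Tbx2 peak (chr11:85842076-85842225, plus strand): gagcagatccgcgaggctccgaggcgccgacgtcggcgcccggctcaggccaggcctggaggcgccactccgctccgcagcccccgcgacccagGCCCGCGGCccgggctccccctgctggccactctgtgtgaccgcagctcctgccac

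Slc38a10 peak (chr11:120189956-120190105, plus strand): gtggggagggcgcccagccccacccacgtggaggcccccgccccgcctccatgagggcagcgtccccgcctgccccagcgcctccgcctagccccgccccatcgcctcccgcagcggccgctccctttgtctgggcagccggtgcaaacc

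Ebf3 peak (chr7:137321616-137321765, plus strand): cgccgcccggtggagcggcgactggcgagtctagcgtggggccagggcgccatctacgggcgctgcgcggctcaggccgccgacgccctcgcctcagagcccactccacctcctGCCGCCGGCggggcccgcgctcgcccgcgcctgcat

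Sox2 peak (chr3:34664296-34664445, plus strand): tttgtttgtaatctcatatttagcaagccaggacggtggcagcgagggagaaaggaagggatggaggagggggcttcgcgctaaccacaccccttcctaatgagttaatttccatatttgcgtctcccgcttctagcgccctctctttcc

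Irx5 peak (chr8:92364516-92364665, plus strand): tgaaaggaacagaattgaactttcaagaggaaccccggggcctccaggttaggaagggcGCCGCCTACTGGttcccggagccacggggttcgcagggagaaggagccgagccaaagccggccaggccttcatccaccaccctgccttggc

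The peaks near Tbx2 and Ebf3 held an AP-2 motif each, and their GC contents were 78% and 79.3%. The peak near Slc38a10 also had 78% GC and none of the marked motifs. Over the whole regions near Tbx2 and Slc38a10 the GC content was lower, 55.3% and 56.3%. The peaks near Sp9 and Nfe2l3 each held a Meis motif, the peak near Kiz a Hox-Pbx motif and the peak near Irx5 a CTCF motif. The peak near Sox2, with 51.3% GC, had no match to the motifs marked.

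The widths ran from 1000 to 8458 bp with a median of 1271 bp (quartiles 1101 and 1594 bp). Most regions were close to the minimum: 645 of the 2093 were at least 1500 bp wide, 255 at least 2000 bp and 77 at least 3000 bp. Together they covered 3.12 Mb, or 5.38% of the hotspot sequence of replicate 1. The 62816 distal hotspots under 1000 bp that passed the same coverage rule had a median width of 248 bp. The 7394 hotspots of at least 1000 bp that did have a protein-coding TSS inside or within 1 kb were a little wider, with a median of 1424 bp and a widest of 12997 bp.

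Replicate 2 hotspots covered a median of 1144 bp, or 93.3%, of each wide distal hotspot. Replicate 2 covered 486 of the regions wholly (23.2%, exact binomial 95% interval 21.4 to 25.1). In replicate 2 the same stretch was often broken up: 1297 regions were touched by 1 replicate 2 hotspot, 796 by 2 or more and 251 by 3 or more. A replicate 2 hotspot that was itself at least 1000 bp wide touched 1505 of them (71.9%, interval 69.9 to 73.8). Of the 3311 distal hotspots of at least 1000 bp in replicate 1, 63.2% passed the coverage rule, against 43.2% of distal hotspots under 1000 bp and 49.4% of all replicate 1 hotspots. The coverage rule is part of the choice of regions, so that these shares are a description only.

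The narrowest regions kept were 1000 bp wide and lay nearest to Asb1, Kirrel3 and Sema3f. The widest distal hotspots left out by width were 999 bp wide, nearest to Khdc1b, Bcl2 and Kctd1. On coverage, the region nearest to Mnx1, a homeobox gene of motor neurons, was kept with 50.02% and one in Lmo7 was left out with 49.95%. On distance, a region 1.015 kb from the TSS of Tmsb10 was kept and one 0.987 kb from the TSS of Spry2 was not. The limits therefore cut through a continuous range.

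Most wide distal hotspots held more than 1 peak. Replicate 1 had a mean of 2.56 peaks per region and replicate 2 of 2.73, a mean of 2.65 ± 0.118 (SD, n = 2 libraries), and the median was 2 in both. At least 2 peaks lay in 81.8% of the wide distal hotspots in replicate 1 and 86.5% in replicate 2. Among distal hotspots under 1000 bp the shares were 4.36% and 5.32%, and among wide hotspots at a protein-coding TSS 72.9% and 85.4%. At least 5 peaks lay in 151 and 178 of the wide regions, and the highest numbers were 16 and 17. The 2 libraries gave the same number of peaks in 1014 regions and numbers within 1 of each other in 1852.

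**Figure D1:**
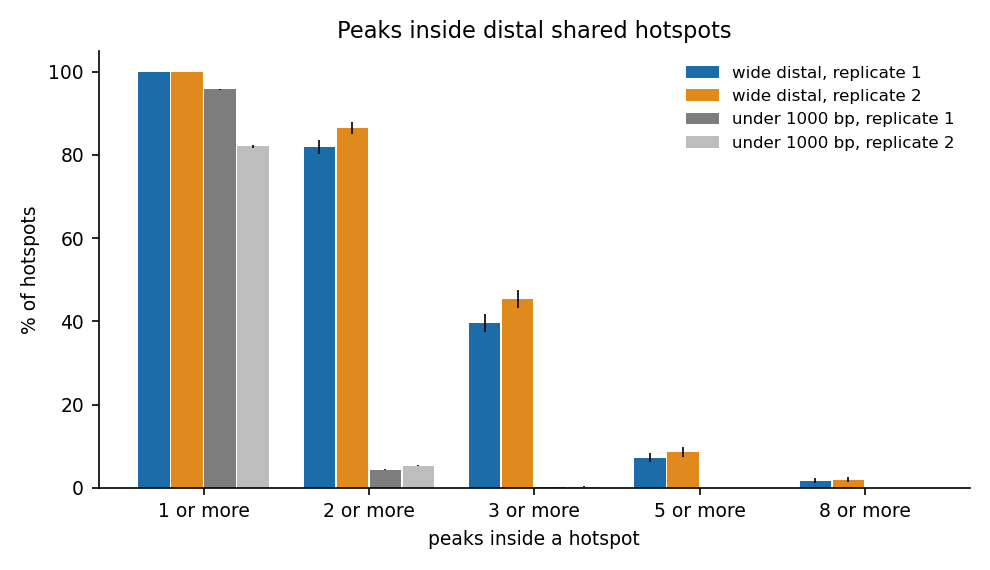
Share of hotspots (y axis, %) holding at least the number of peaks on the x axis, for wide distal hotspots and for distal shared hotspots under 1000 bp, in each library; error bars are exact binomial 95% intervals. At least 2 peaks lay in 81.8% and 86.5% of wide distal hotspots and in 4.36% and 5.32% of narrower ones.

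Peak number went with width, as it must where a longer stretch is searched. Regions with 1 replicate 1 peak had a median width of 1103 bp, those with 4 peaks 1852 bp and those with 8 or more 4936 bp. Per kb the wide regions held fewer peaks than the narrow ones, a median of 1.74 in replicate 1 and 1.82 in replicate 2, against 3.83 and 3.25. The narrow sites held a median of 1 peak over a median of 248 bp, so that this order follows from the choice by width. Neighbouring peak centres inside a region were a median of 440 bp apart in replicate 1 (quartiles 320 and 580 bp) and 420 bp in replicate 2 (320 and 560 bp). The spacing was nearly the same in both libraries.

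Peaks were also followed from library to library. The regions had been chosen for replicate 2 hotspots over most of their length, which was not asked of other distal peaks, so that a higher share of matched peaks inside them follows from the choice and is no result. Of 5362 replicate 1 peaks inside wide distal hotspots, 65.8% matched a replicate 2 peak over at least 75 bp, against 35.1% of 165481 other distal replicate 1 peaks. The authors' signal value of matched peaks had a median of 46 in replicate 1 and 88 in replicate 2 inside the wide regions, against 27 and 62 at other distal matched peaks. In replicate 1, 1069 regions held a peak at or above a signal of 56, the value that the strongest 10% of that library's peaks reached. The 10% is a share of peaks and not of regions, and a region with several peaks has more chances to hold such a peak. The share among other hotspots was not computed. The labels and notes do not say what the signal value counts, so that values of the 2 libraries were not compared as levels.

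The nearest genes of the 15 widest regions were of several kinds. The widest region, 8458 bp at chr2:73274182-73282639, overlapped an exon of Sp9, a zinc finger factor of the limb ridge and forebrain, and began 2.26 kb downstream of its TSS. It held 16 replicate 1 and 14 replicate 2 peaks, and replicate 2 hotspots covered 7171 bp of it in 11 pieces. The region nearest to Tbx2, a T-box repressor, was 6750 bp wide at chr11:85835663-85842412 with 12 and 14 peaks in replicates 1 and 2. It overlapped an exon of Tbx2, 3.11 kb from its TSS.

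Of the 15 widest, 3 were nearest to a homeobox gene. At Irx5, an Iroquois homeobox gene, a region of 6131 bp (chr8:92361284-92367414) held 10 and 12 peaks, and replicate 2 covered 96.4% of it, with 1 hotspot of 6014 bp. Next to Barhl2, a homeobox gene of neurons, 5994 bp held 11 and 16 peaks. At Evx2, the homeobox gene beside the Hoxd cluster, 5645 bp held 12 peaks in each library, and a replicate 2 hotspot of 6859 bp overlapped it. Replicate 2 covered 95.1% to 96.4% of all 3.

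Neural crest and mesenchyme genes had similar stretches. Tfap2a encodes AP-2 alpha, needed in neural crest and facial ectoderm, and 2 regions of 5348 bp and 4868 bp lay 16.1 and 21.8 kb downstream of its TSS. They held 10 and 9 replicate 1 peaks, and 12 and 9 replicate 2 peaks, and replicate 2 covered 82.7% and 92.0% of them. Next to Mef2c, a MADS-box factor of the jaw and neural crest, a region of 5660 bp lay 139 kb downstream with 12 peaks in each library. The region upstream of Foxf1, a forkhead factor of mesenchyme, was 5881 bp wide over the noncoding gene Fendrr. There the libraries differed: 13 peaks in replicate 1 and 7 in replicate 2, with 52.6% covered.

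Sox2, a factor of placodes and neural progenitors, had a region of 6372 bp inside its overlapping transcript Sox2ot, with 13 and 10 peaks. Replicate 2 covered 55.1% of it in 9 pieces. The region beside Ebf3, of the early B-cell factor family, was 6385 bp wide with 11 peaks in each library. Zfp503, a zinc finger factor, had 5484 bp with 10 and 9 peaks, 98.9% covered.

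Other regions among the widest had a nearest gene of another kind, or one far away. The region nearest to Kiz, which encodes a centrosome protein, was 7183 bp wide with 16 and 17 peaks and contained a TSS of the lincRNA Gm14114. The region nearest to Slc38a10, of an amino acid transporter family, was 6722 bp wide with 11 and 10 peaks and contained a TSS of the noncoding gene 2810410L24Rik. Its strongest peaks had signal values of 121 and 142, high for both libraries. The region nearest to Nfe2l3, a bZIP factor, lay 257 kb from its TSS and was 7305 bp wide with 12 and 16 peaks. Replicate 2 drew it as 13 pieces, none over 902 bp. At Setd1b, a histone methyltransferase gene, 5455 bp held 11 and 13 peaks.

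**Figure D2:**
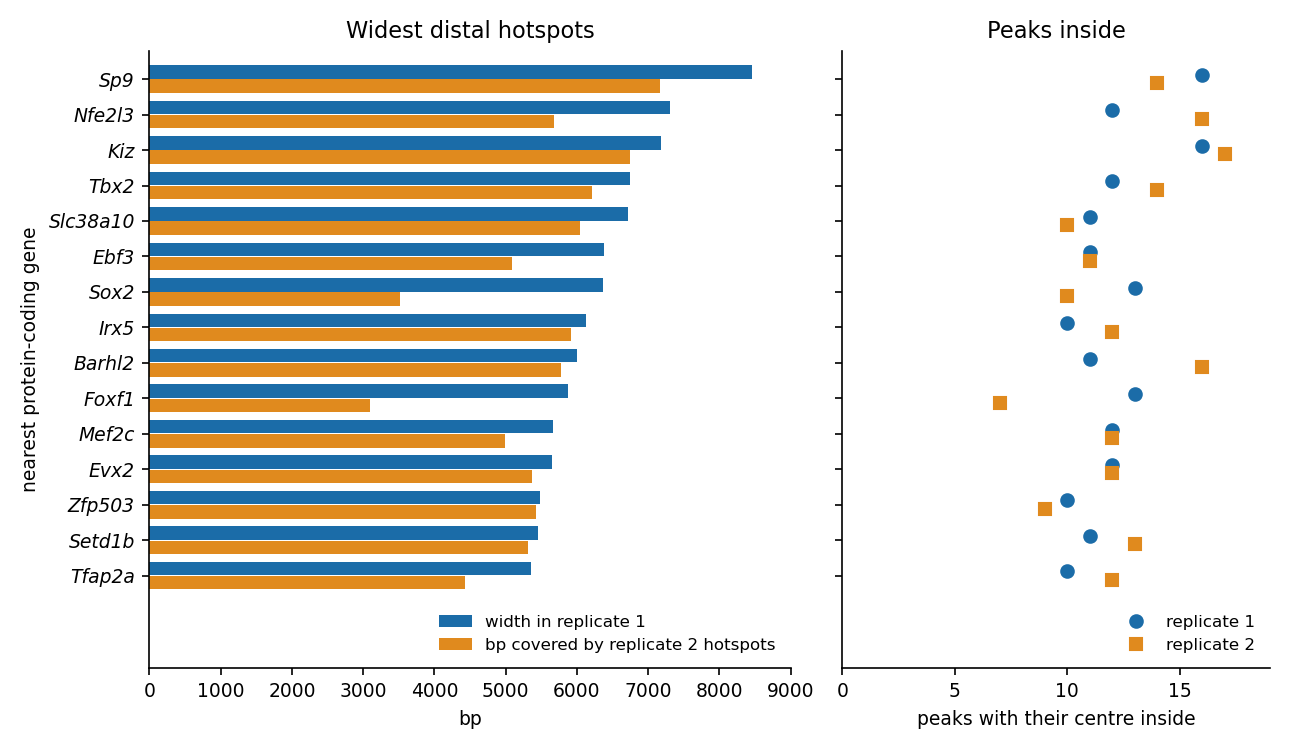
The 15 widest distal hotspots by nearest protein-coding gene: left, width in replicate 1 and the bp of it that replicate 2 hotspots covered; right, peaks with their centre inside, in each library. The region at Sp9 reached 8458 bp, while those at Sox2 and Foxf1 were covered over only 3514 and 3091 bp.

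The nearest gene need not be the gene a region acts on. By nearest TSS the 2093 regions belonged to 1521 genes: 350 genes had 2 or more, 122 had 3 or more and 11 had 6 or more. The number with 3 or more was 212 without replicate 1, 324 without replicate 2 and 42 with over 90% of each region covered. All 20696 protein-coding genes named in the annotation gave a background of 7.35% with a wide distal hotspot. Nr2f2 and Nr2f1, nuclear receptors of the COUP-TF family that pattern neural crest and forebrain, had 8 and 7. The 8 at Nr2f2 summed to 20274 bp with 40 replicate 1 and 41 replicate 2 peaks. Zfp608, a zinc finger gene, also had 8, spread from 1.06 to 559 kb of its TSS.

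Homeobox genes related to sine oculis, which act in placodes, kidney and craniofacial mesenchyme, had several regions each. Six3, of the eye and forebrain, had 7 regions and Six2 had 6. The widest at Six2 was 5180 bp, with 8 and 10 peaks. Mef2c had 6 regions summing to 18370 bp, Sox4 6 summing to 9182 bp, and Pax3, of neural crest and muscle progenitors, 5 summing to 12059 bp. Tbx15, a T-box gene of facial and limb mesenchyme, and Uncx, a homeobox gene, had 5 each.

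Other genes among the 15 with most regions are known for other functions. Chd2, a chromatin remodeller, had 6 regions, and Zmiz1, a transcriptional cofactor, had 6. Ubash3b and Sorl1 had 8 and 7, all at least 53.8 kb from a TSS of either gene. Of the 8 at Ubash3b, 5 overlapped the noncoding gene 3110039I08Rik, which also holds Mir125b-1, described below.

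**Figure D3:**
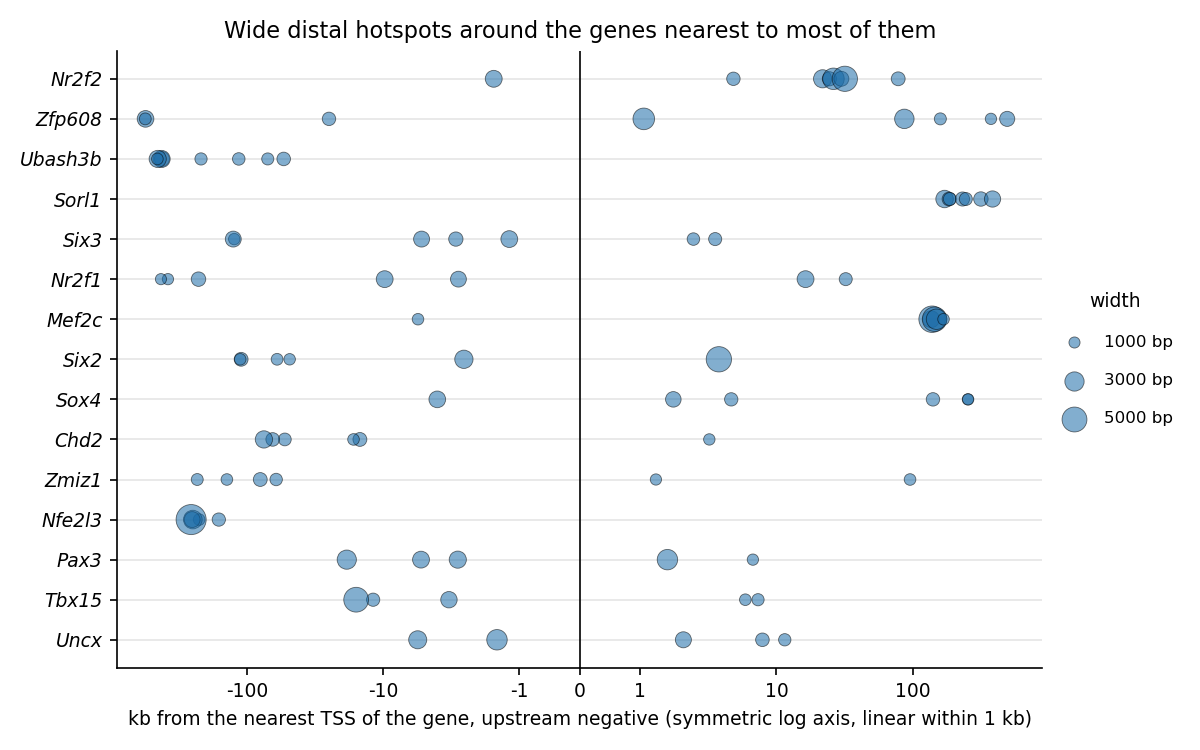
Positions of the wide distal hotspots of the 15 genes nearest to most of them, in kb from the gene's nearest TSS (x axis, symmetric log scale, upstream negative); circle area is proportional to width. At Mef2c and Nr2f2 the widest circles lie together on the downstream side, and at Ubash3b and Sorl1 all lie beyond 50 kb.

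Some wide distal hotspots lay in runs, while the median gap to the nearest other was 124 kb. With gaps of up to 10 kb, 441 of the 2093 regions formed 179 runs of 2 or more, and 25 runs had 4 or more. The number expected of as many regions placed otherwise was not computed. The longest run by number was at Zic2 and Zic5, zinc finger genes of neural tube and mesenchyme, with 7 regions over 33.6 kb. At Nr2f2, 5 regions of 14958 bp in all filled a stretch of 15.1 kb, and at Mef2c 4 regions of 16205 bp filled 16.6 kb. Each of the 5 at Nr2f2 had another 3 to 45 bp away. Of all 2093 regions, 212 had another within 1 kb.

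Within these runs the libraries could be followed region by region. The 4 neighbours at Mef2c were 2302, 5660, 4865 and 3378 bp wide and held 5, 12, 8 and 7 peaks in replicate 1 and 4, 12, 9 and 4 in replicate 2. Replicate 2 covered 90.01%, 88.3%, 91.8% and 76.3% of them. The last of the 4 was the least covered. The 5 neighbours at Nr2f2 held 9, 4, 8, 2 and 6 replicate 1 peaks and 7, 3, 8, 4 and 8 replicate 2 peaks, in genome order, and were covered over 61.3% to 96.8%.

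Coverage set some runs apart from others. At Dlx1 and Dlx2, a pair of distal-less homeobox genes of the jaw and forebrain, 5 regions of 7875 bp in all were covered over 7454 bp. At Foxf1, 5 regions of 10793 bp were covered over 7224 bp. The regions on either side of the Pax3 TSS, 1.58 to 18.5 kb away, were covered over 52.8% to 100%. The depth of the libraries is unknown, and its part in these differences was not tested.

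The regions were spread over all 19 chromosomes. Of all 64909 distal shared hotspots 3.22% were at least 1000 bp wide. By chromosome the share lay between 2.46% (chromosome 15) and 4.30% (chromosome 13). The deposited −log10 q was at its ceiling of 100 in 1862 wide distal hotspots (89.0%). It was there in 27.6% of the narrow ones and 96.6% of the wide hotspots at a protein-coding TSS.

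The gene lists were chosen with earlier results of these data known, so that the shares below are a description and support nothing. Genes of 2 lists, Zfp608 with its 8 regions among them, were taken as face regulators: facial mesenchyme and neural crest regulators, and jaw and arch patterning. They were nearest to 185 of the wide distal hotspots (8.84%, interval 7.66 to 10.1), against a background of 3.53% of the distal shared hotspots under 1000 bp and 3.7% of all distal shared hotspots. Of the 98 such genes annotated, 71 (72.4%) had at least 1 wide distal hotspot, against 7.35% of all 20696 protein-coding genes. Their distal shared hotspots of any width numbered 2401, of which 7.71% were wide, against 3.22% of all 64909. The share of regions nearest to face regulators went up with width among wide regions, each class ending where the next begins. It was 6.42% from 1000 bp, 9.74% from 1500 bp, 16.9% from 2000 bp and 31.2% (24 of 77, interval 21.1 to 42.7) from 3000 bp. In the 4 classes under 1000 bp it was between 2.74% and 5.06%. The share was also higher at each distance: 13.1% against 2.87% at 1 to 10 kb from a TSS, 4.80% against 2.29% at 10 to 100 kb, and 10.8% against 6.73% beyond 100 kb. Regions near 1 gene are not independent, and the intervals cover counting error only. The higher share was not particular to face genes: it was higher than among narrow sites also for neurons and neural tube (1.86% against 0.355%), Hox genes (0.191% against 0.0557%) and housekeeping genes (0.287% against 0.0748%), the last 2 from 4 and 6 wide regions.

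**Figure D4:**
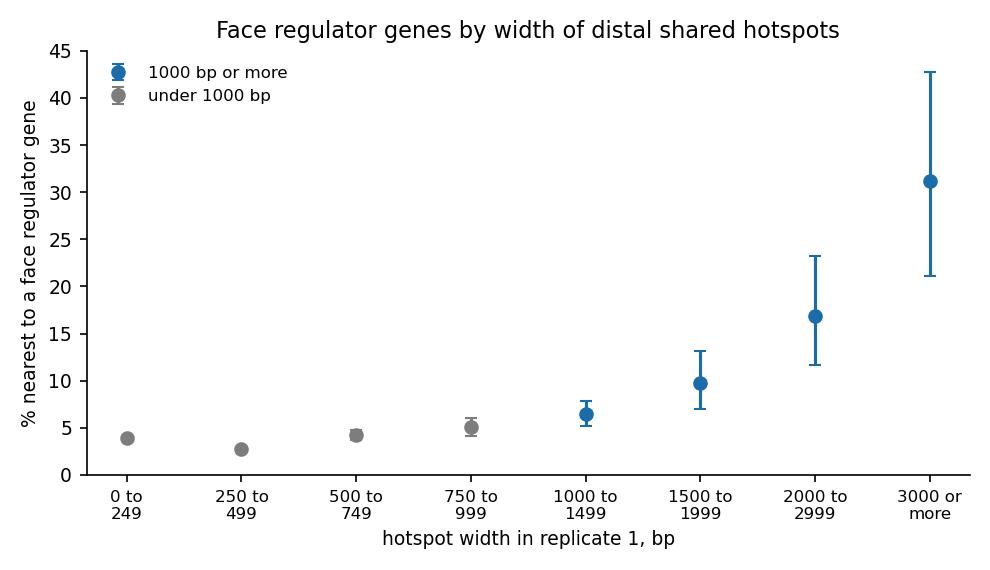
Share of distal shared hotspots nearest to a face regulator gene (y axis, %) by hotspot width in replicate 1 (x axis, bp), with exact binomial 95% intervals. The share was 31.2% at 3000 bp or more and at most 5.06% in the classes under 1000 bp. The gene lists were chosen with earlier results of these data known.

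In the list of facial mesenchyme and neural crest regulators 7.13% of distal shared hotspots were wide, against 3.22% over all genes. A wide distal hotspot lay nearest to 55 of the 72 genes, with 145 in all. Besides Nr2f2, Zfp608, Nr2f1 and Six2, these included Sox9, needed for cartilage and crest, with 4, Alx4 with 3, and Twist1 and Msx1 with 2 each. Alx1, Snai2 and Sox10 had none. Distal shared hotspots of any width numbered 18 at Alx1 and 4 at Snai2. Sox10, of crest glia and pigment cells, had 1.

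For jaw and arch patterning, 16 of 26 genes had a wide distal hotspot, with 40 in all (10.9% of the list's distal shared hotspots). That share was 14.9% for neurons and neural tube, 11.3% for housekeeping genes and 10.3% for Hox genes, the last 2 from 6 and 4 wide regions. In the other lists it was between 2.78% and 8.02%. Mef2c had 6, Hand2, a helix-loop-helix factor of the lower jaw, had 5, Dlx2 had 5 and Dlx6 had 4. The widest at Hand2 was 3447 bp and at Pitx1, of the hindlimb and jaw, 3737 bp. Edn1, which encodes an endothelin ligand, had none, and its receptor gene Ednra had 1 of 1580 bp.

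A wide distal hotspot lay nearest to 24 of 54 facial signalling genes, 33 in all. They were 1.58% of the wide regions, against 1.38% of the narrow ones. Of the distal shared hotspots of this list 3.66% were wide, near the 3.22% over all genes. Smad6, an inhibitor of BMP signalling, Cyp26b1, which breaks down retinoic acid, and Fgfr1 had 3 each, all under 2000 bp. Hes1, a Notch target, had the widest at 3429 bp. The ligand genes Shh, Bmp4 and Wnt5a had none, with 17, 12 and 16 distal shared hotspots of any width.

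Other lists gave values for cells besides mesenchyme. The list of neurons and neural tube had 14 of 21 genes with a wide distal hotspot and 39 in all, 1.86% of the wide regions against 0.355% of the narrow ones. Pou3f3 and Onecut2 had 5 each, Pou4f1, of sensory neurons, 4 with a widest of 4231 bp, and Pou3f2 4. Promoters of 6 of 6 neuron markers held a peak in both libraries, against the background of 67.3% of all genes. The part of neural tissue in these values was not tested.

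Of the face epithelium, placode and lens list 7 of 21 genes had one, 17 in all, of which Six3 had 7 and Pax6 had 5. Sox2, Epcam, Grhl2, Maf and Prox1 had 1 each, of 1532 bp at Epcam and 1441 bp at Grhl2. The keratin genes Krt5, Krt8, Krt14 and Krt18 had none. The list was nearest to 0.812% of the wide regions, against 0.310% of the narrow ones. Among Hox genes, which are silent in most of the face, 3 of 39 had one, led by Hoxc4 with 2. Endothelial genes had one at 4 of 19 (Sox17, Erg, Fli1 and Flt1), each under 1300 bp, and made up 0.191% of the wide regions, against 0.223% of the narrow ones. Erythroid and macrophage genes had one at 2 of 17 (0.191% against 0.135%), with 3 regions at Ptprc and 1 at Irf8. Muscle progenitor genes had one at 2 of 10 (0.239% against 0.100%), of which Lbx1 had 4 regions. Adhesion and cytoskeleton genes had one at 8 of 23 (0.573% against 0.412%), led by Col1a2 and Cdh11 with 3 each. Liver and gut genes had one at 2 of 15 (0.191% against 0.0939%), led by Foxa1 with 3. Housekeeping genes had one at 4 of 13, led by Eef1a1 with 3. The share was thus higher than among narrow sites in each list but that of endothelium, and most of these lists rest on 6 wide regions or fewer.

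Gene families named from RefSeq descriptions, chosen after the nearest genes were seen, gave these counts. Homeobox genes were nearest to 139 wide distal hotspots (6.64%, against 2.27% of the narrow ones), at 59 of 184 genes. SRY-box genes had one at 11 of 18, T-box genes at 8 of 13 and forkhead genes at 18 of 41. Zinc finger genes had one at 59 of 642 (9.19%, against 7.55% of all genes with a description). They were nearest to 4.97% of the wide regions, against 3.43% of the narrow ones. Olfactory receptor genes had one at 6 of 1086, but were nearest to 0.382% of the wide regions, close to 0.345% of the narrow ones.

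Position differed from that of narrower sites. Wide distal hotspots were intergenic in 61.2% (interval 59.1 to 63.3), intronic in 25.04% and exonic in 13.8%, against 52.5%, 40.9% and 6.56% of the distal shared hotspots under 1000 bp. A wider region has more chance to touch an exon. The median distance to the nearest protein-coding TSS was 25.2 kb, against 34.7 kb. At 1 to 10 kb lay 710 wide regions, at 10 to 100 kb 959 and beyond 100 kb 424. The farthest was 2240 kb from a TSS of Tenm3, a gene of cell adhesion, and was 1103 bp wide with 3 peaks in each library. The next 2 were 1326 and 947 kb from the TSS of Zeb2, a zinc finger factor of neural crest.

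A TSS of a noncoding gene or pseudogene lay inside 280 wide distal hotspots (13.4%, interval 11.9 to 14.9). One lay inside 1.42% of the narrow ones and 15.6% of the wide hotspots at a protein-coding TSS. Counted per length, such TSSs numbered 133 per Mb in the wide distal hotspots and 57.8 per Mb in the narrow ones. LincRNA genes accounted for 132 of the regions and antisense genes for 55. In the class of 3000 bp or more the share was 33.8%.

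MicroRNA genes were among them. A miRNA gene overlapped 14 wide distal hotspots (0.669%) and 41 narrow ones (0.0653%), or 4.81 and 2.26 miRNA genes per Mb. The look-up of miRNAs was made after the nearest genes were seen. Of the 15 miRNA genes concerned, 14 matched the RefSeq miRNA table (GRCm38.p6), with 22 mature sequences. Mir124a-3 had no match, so no sequence of it is given. A region of 1206 bp with 2 peaks in each library overlapped Mir124a-3, and a second of 1244 bp lay 124 bp from it. The sequences below are a selection made after the values were seen, from loci of known mesenchymal, epithelial and broadly expressed miRNAs. The seed (bases 2 to 8) is in capitals.

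mmu-miR-199a-5p (chr1:162217844-162217866, plus strand): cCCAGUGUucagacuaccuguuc

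mmu-miR-199a-3p (chr1:162217883-162217904, plus strand): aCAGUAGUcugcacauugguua

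mmu-miR-199b-3p (chr2:32318524-32318545, plus strand): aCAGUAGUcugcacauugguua

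mmu-miR-125b-5p (chr9:41581940-41581961, plus strand): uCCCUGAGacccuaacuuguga

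mmu-let-7i-5p (chr10:122985698-122985719, minus strand): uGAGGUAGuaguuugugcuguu

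mmu-miR-203-3p (chr12:112130927-112130948, plus strand): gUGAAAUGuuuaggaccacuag

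The seed CAGUAGU is shared by miR-199a-3p and miR-199b-3p, whose printed sequences are identical. They come from Mir199a-2 on chromosome 1 and Mir199b on chromosome 2, each opposite to a dynamin gene and known in mesenchyme. The region over Mir199b was 3536 bp wide with 7 and 5 peaks, and the one over Mir199a-2 was 1358 bp wide with 1 peak in each library. An open miRNA gene does not give the amount of the miRNA.

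The region over Mir125b-1 was 1813 bp wide with 3 and 4 peaks, 422 kb from the TSS of Ubash3b, and a second of 2364 bp began 121 bp from the miRNA. A region of 2389 bp with 2 and 5 peaks lay over Mirlet7i, of the let-7 family that is known for developmental timing. Mir203, an epidermal miRNA, lay in a region of 1233 bp with 2 peaks in each library, of which replicate 2 covered 797 bp. Mir148a lay 139 bp from a region of 1429 bp, one of the 5 nearest to Nfe2l3. Within 1 kb of a miRNA gene lay 24 wide regions (1.15%), against 0.325% of the narrow ones.

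The base composition of wide distal hotspots lay between that of narrow distal sites and promoters. The median GC content was 51.0%, against 48.2% for distal shared hotspots under 1000 bp and 58.8% for wide hotspots at a TSS. The CpG observed over expected ratio had a median of 0.440, against 0.256 and 0.733. A GC content of at least 50% and a ratio of at least 0.6 are limits used for CpG islands, here with no minimum length. By them 421 wide distal hotspots (20.1%) qualified, against 4.71% of the narrow ones and 79.8% of the wide ones at a TSS. The narrow sites were short, with a median of 248 bp and ratios from 0 to 4.22, so that their share is not a like measure. Among wide distal hotspots the share fell with distance: 28.7% at 1 to 10 kb, 19.1% at 10 to 100 kb and 8.02% beyond 100 kb. At each distance the median ratio stayed above that of narrow sites, 0.531 against 0.274, 0.425 against 0.257 and 0.326 against 0.238. Soft-masked repeats took up a median of 10.5% of the bases, against 7.5% for narrow distal sites and 7.40% for wide hotspots at a TSS. No wide hotspot, distal or at a TSS, was over 50% repeat, against 4.25% of the narrow ones.

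Motifs were searched on both strands in the 150 bp peaks found in both libraries, 3529 inside wide distal hotspots and 58160 other distal ones. CTCF is the zinc finger protein that anchors chromatin loops, and the core of its motif was in 5.72% of the peaks inside wide distal hotspots, against 16.3% of the others. It was lower at each GC content: 5.83% against 16.7% below 40% GC, 5.97% against 16.3% at 40 to 50%, 6.28% against 17.8% at 50 to 60%, and 4.85% against 9.85% at 60% or more. With replicate 2 peaks the shares were 5.81% and 16.7%.

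**Figure D5:**
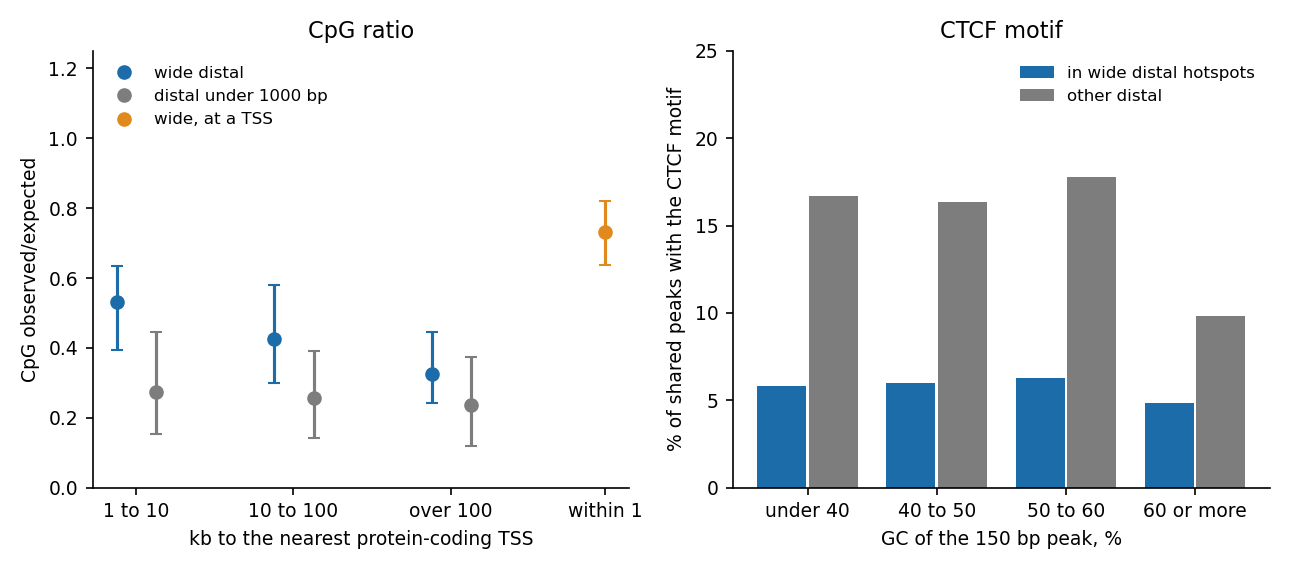
Left, CpG observed over expected ratio (median with quartiles) by distance to the nearest protein-coding TSS for wide distal hotspots, distal shared hotspots under 1000 bp and wide hotspots at a TSS. Right, share of 150 bp peaks found in both libraries with the CTCF motif, by GC content: between 4.85% and 6.28% inside wide distal hotspots and between 9.85% and 17.8% at other distal peaks.

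The AP-2 motif GCCNNNGGC, of the factors that specify neural crest and ectoderm, was in 10.4% of the peaks inside wide distal hotspots, against 6.03% of the others. Within GC classes the shares lay closer: 0.833% against 1.01% below 40% GC, 4.42% against 3.15% at 40 to 50%, 7.41% against 6.95% at 50 to 60% and 19.5% against 17.0% at 60% or more. The E-box CANNTG, bound by helix-loop-helix factors such as Twist1, was in 51.5% against 63.1%, and lower in each GC class. The Meis motif TGACAG was in 8.08% against 11.1%, but below 40% GC it was in 10% against 8.64%. The homeodomain motif TAATTA was in 2.98% against 3.81%. Within GC classes the order of the homeodomain shares changed: 5% against 10.01% below 40% GC, but 5.85% against 5.10% at 40 to 50%, 2.61% against 2.21% at 50 to 60% and 1.13% against 0.646% at 60% or more.

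Over all GC classes the remaining motifs were in a lower share of peaks inside wide distal hotspots than of other distal peaks. TEAD (GGAATG) was in 9.24% against 10.6%, SOX (ACAATG) in 6.06% against 7.08% and AP-1 (TGANTCA) in 3.34% against 4.46%. Forkhead (TGTTTAC) was in 1.90% against 2.08%, Hox-Pbx (TGATTNAT) in 1.33% against 1.72%, the letters AGATAAG, bound by GATA factors, in 0.765% against 1.11%, and the full NFI palindrome in 0.0850% against 0.139%. AP-1 was lower in each GC class, but the order turned for the other 6 in at least 1 class. SOX was in 12.5% against 9.59% below 40% GC and in 4.50% against 2.81% at 60% or more, and Hox-Pbx in 6.67% against 3.77% and 0.779% against 0.484% in the same classes. Forkhead was in 5.83% against 3.11% below 40% GC, 3.70% against 2.66% at 40 to 50% and 0.952% against 0.856% at 60% or more, and TEAD in 12.5% against 11.0% at 40 to 50%. The GATA letters turned below 40% and at 50 to 60% GC, and NFI below 40% GC on 1 peak. The class below 40% GC held 120 peaks inside wide distal hotspots and that of 60% or more 1155. Matches of different motifs can share bases.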

How the data were processed

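DNase-seq libraries 1 and 2 were biological replicates of 1 group. Peaks and hotspots were called by the authors on each library alone (build mm10), as the notes deposited with the files say. Neither these notes nor the labels name an aligner or caller. Each deposited hotspot had a −log10 q of at most 100, with no value between 6 and 100, and a score not used here. Each deposited peak was 150 bp wide with a signal value used only to rank and describe peaks. Totals of reads were not in the files used here, so depth is unknown.

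From these files, widths, coverage, peaks (counted by centre), nearest protein-coding TSS, place, base composition and motifs were computed with Python 3.11.15, pandas 2.3.3, NumPy 2.4.6, SciPy 1.17.1, pysam 0.24.0 and samtools 1.23.1. Gene models were GENCODE M21 and the genome GRCm38.p6. No coordinate lay beyond a chromosome end. Interval functions were tested on simulated data. A region was exonic where it touched an exon of a protein-coding gene, otherwise intronic or intergenic. Shares carry exact binomial (Clopper-Pearson) 95% intervals, which cover counting error only; n = 2 for libraries, and no test was run. Peaks matched where at least 75 bp overlapped.

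The regions, the 12 gene lists (330 genes annotated on chromosomes 1 to 19) and motifs were chosen with earlier results of these data known. Named are the 15 widest regions, the 15 genes nearest to most, the farthest, the regions at each limit, and up to 4 leading genes of each list; others in a list, the runs, families, noncoding and miRNA genes were named after their values were seen. Alternatives were other widths, coverage, TSS windows, gene sets, joined hotspots, the highest −log10 q, each library alone, and swapped roles. Chromosomes X and Y, the mitochondrial genome and scaffolds were left out by the rule. Results for a few genes are not reported here.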

Additional observations from a re-analysis of the deposited data

Results flagged for a closer look

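Chromosome X lay outside the 19 chromosomes of the rule. By the same limits of width, coverage and distance it held 30 wide distal hotspots shared by both libraries, the widest 2427 bp, with Gm26992, Ddx3x, Utp14a and Bcor among the nearest genes. They were flagged as signal in data that the comparisons above did not use. Shared hotspots of at least 1000 bp numbered 4 in mitochondrial sequence, 5 on scaffolds and 1 on Y.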

How the results depend on the processing

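No paired analysis was possible because the study had 1 group. The cause of a shift was not tested, beyond what a wider or narrower limit does by construction. The number of wide distal hotspots, 2093, was 3596 at a minimum of 800 bp, 645 at 1500 bp and 1231 with over 90% covered; with 1 library left out it was 3123 to 3311. The median width, 1271 bp, was 1055 bp at 800 bp, 1856 bp at 1500 bp and 1318 bp with hotspots joined across gaps of up to 150 bp (1235 to 1280 bp with 1 library). The median of 2 peaks became 3 at 1500 bp and with joined hotspots.

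The intergenic share, 61.2%, was 59.3% at 800 bp, 62.9% at 1500 bp, 65.6% with no TSS within 2.5 kb, 58.3% with TSSs of all genes, 63.0% at the highest −log10 q, 59.0% with roles swapped and 58.4% to 59.6% with 1 library. The median distance, 25.2 kb, was 25.8 kb at 800 bp, 15.8 kb at 1500 bp, 27.1 kb with over 90% covered, 32.8 kb with no TSS within 2.5 kb, 31.8 kb with joined hotspots, 27.9 kb at the highest −log10 q, 30.1 kb with roles swapped and 31.0 to 31.6 kb with 1 library. The share nearest to face regulators, 8.84%, was 7.31% at 800 bp, 14.3% at 1500 bp, 7.72% with over 90% covered, 6.55% with joined hotspots, 7.10% at the highest −log10 q, 7.62% with roles swapped and 7.24% to 8.52% with 1 library. The genes with 3 or more regions, 122, numbered 262 at 800 bp, 31 at 1500 bp, 42 with over 90% covered, 191 with joined hotspots, 69 at the highest −log10 q, 191 with roles swapped and 212 to 324 with 1 library.

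With TSSs of the comprehensive annotation, an alternative chosen after seeing the data, the intergenic share was 63.9% and the median distance 23.9 kb. With only the strongest peak of each region, the CTCF motif was in 7.15% and the AP-2 motif in 11.6% of peaks. Of all values under alternatives, 58 stayed within the spread between libraries, the interval or 1.5 times the count, and 46 did not. That spread was the SD of the values from each library alone, without the coverage rule. It was 0 for the median peak number and 0.404 kb for the median distance, and does not measure the spread of the main result. Unknown depth limits what the absence of a hotspot can say.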
